A study of Mus musculus with 2 samples.

Results

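The genes described are the 3 NR4A nuclear receptors *Nr4a1*, *Nr4a2* and *Nr4a3*, the early growth response factors *Egr1*, *Egr2* and *Egr3*, and the corepressors *Nab1* and *Nab2*. These 8 genes were taken by name from the 19938 genes with a probe set of exactly 1 symbol in the platform annotation, and each was represented by 1 probe set. The values come from 2 arrays of CD3+CD4+ T cells sorted from the pancreatic lymph nodes (PLN) of BDC mice, NOD mice whose transgenic TCR α and β chains (Tcra and Tcrb) were taken from a diabetogenic clone with specificity for a β cell antigen, 48 hours after an antibody injection. One array holds cells after the nondepleting antibody to CD4 (ND αCD4, clone YTS177) and the other cells after the isotype control Ab (clone 2A3). All mice were 8 weeks old and carried the same transgenes. The labels state 1 mg for the isotype control Ab and leave it unclear whether the same amount applies to ND αCD4, and they give the transgene a clone number that differs from the one in the methods. PLN of 3 mice were pooled for the sort. There is 1 array per condition, so the differences below carry no error and no p value, and precision is limited by the number of arrays.

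NR4A proteins are orphan nuclear receptors. Their activity follows the amount of protein made rather than a known hormone, and in T cells transcription of their genes starts within minutes of TCR engagement, which is why a *Nr4a1* (Nur77) reporter is used as a gauge of antigen signaling. EGR proteins are zinc finger transcription factors of the same immediate early class, driven largely by the Ras and ERK branch of the TCR pathway, and EGR2 and EGR3 are known for genes that restrain T cell responses. NAB1 and NAB2 bind EGR factors and repress their targets, and *Nab2* is itself an EGR target, which forms a negative feedback loop.

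Array signals are on the log2 scale, and a difference is a log2 ratio, ND αCD4 minus isotype control. Detection required a signal, in either array, above the 95th percentile of probe sets for olfactory and vomeronasal receptors, genes that T cells are not known to use. This background was 7.64 with isotype control and 7.56 with ND αCD4. All 8 genes exceeded it in both arrays. The T cell identity of the sort was visible in *Cd3e* (13.76 with isotype control and 13.78 with ND αCD4) and *Cd4* (13.38 and 13.48).

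After ND αCD4, 7 of the 8 genes had a log2 ratio below 0 and 1 had a log2 ratio above 0. The exception was *Nr4a2*. Among the 7, *Nab1* was close to 0 at -0.02 and changed sign under quantile normalization. The median log2 ratio of the 8 genes was -0.30, beside -0.01 over the 13222 detected genes, of which 52.7% were below 0. The 8 genes were chosen with earlier results of these data known, so this count and median are description only. A single member, *Nr4a3*, was at least 1.5-fold lower, and none was at least 1.5-fold higher. Over all detected genes, 1.01% were lower by this rule and 0.212% were higher. The study displays *Nr4a1* from these samples and names *Nr4a3* when it discusses residency genes, so neither is independent evidence of direction. Beyond the arrays, the study reported lower *Nr4a1* by qRT-PCR in PLN CD4+ T cells of BDC mice after ND αCD4. It also reported a lower Nur77 reporter signal in pancreatic CD4+ T cells, in BDC mice carrying a GFP reporter and at a later time than these arrays. In bulk RNA of a sorted pool, fewer cells expressing a gene and less RNA of it per cell cannot be told apart.

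**Figure D1:**
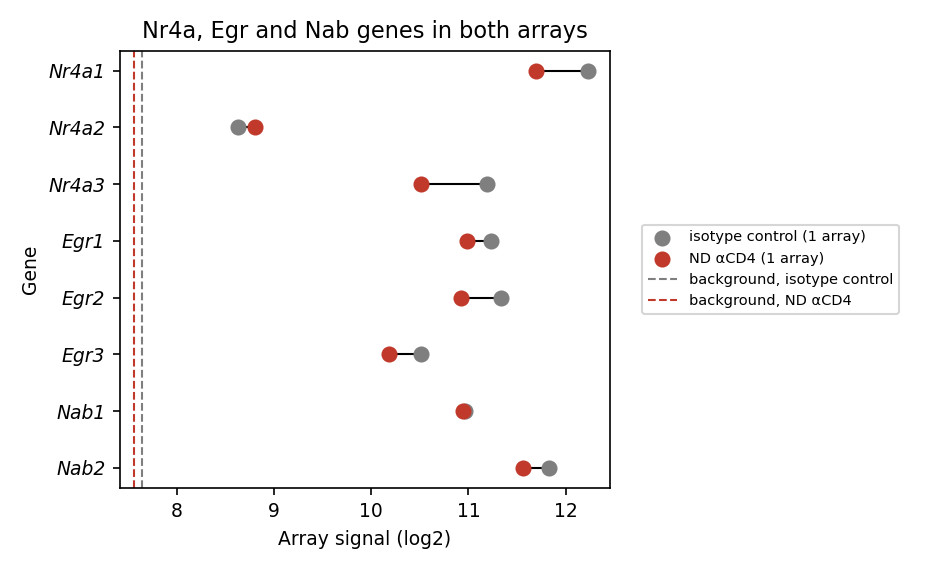
Array signal (log2, horizontal axis) of the 8 genes with isotype control (gray) and ND αCD4 (red), 1 array per condition, joined by a line within each gene, and background in each array as dashed lines. *Nr4a3* goes from 11.20 to 10.52 and *Nr4a2* from 8.63 to 8.80, and levels of different genes cannot be set against each other because each has its own probes.

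*Nr4a3* differed most among the 8 genes. Its signal was 11.20 with isotype control and 10.52 with ND αCD4, which is 1.60-fold lower. Of the 13222 detected genes, 96 (0.726%) had a log2 ratio as low or lower, among them 15 of the 2577 genes whose mean signal lay within 0.5 of its own. *Nr4a3* encodes NOR1, a receptor whose induction in T cells depends on calcium and NFAT signaling.

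*Nr4a1* had a signal of 12.23 with isotype control and 11.69 with ND αCD4, a log2 ratio of -0.54. It was 1.45-fold lower and so just short of the 1.5-fold rule. A log2 ratio as low or lower was found in 153 detected genes (1.16%), but in only 5 of the 1208 genes whose mean signal lay within 0.5 of its own. The log2 ratios of *Nr4a1* and *Nr4a3* differed by 0.14.

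*Nr4a2*, which encodes Nurr1, went the other way. Its signal was 8.63 with isotype control and 8.80 with ND αCD4, a log2 ratio of 0.18. It was also the member nearest to background, at 0.99 above it with isotype control and 1.24 above it with ND αCD4, whereas the other 7 genes were at least 2.62 above it in each array. A log2 ratio as high or higher was found in 1048 detected genes (7.93%), and in 246 of the 2848 genes of like signal. The log2 ratio of *Nr4a2* exceeded that of *Nr4a3* by 0.86. How much each of these ratios would vary between mice was not measured. A yardstick within the arrays is how far probe sets of one gene disagree in their log2 ratio, with an SD of 0.09 over 536 genes with exactly 2 probe sets, both detected. That SD leaves out any difference between the pools. Over all detected genes, the log2 ratios had an SD of 0.17.

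**Figure D2:**
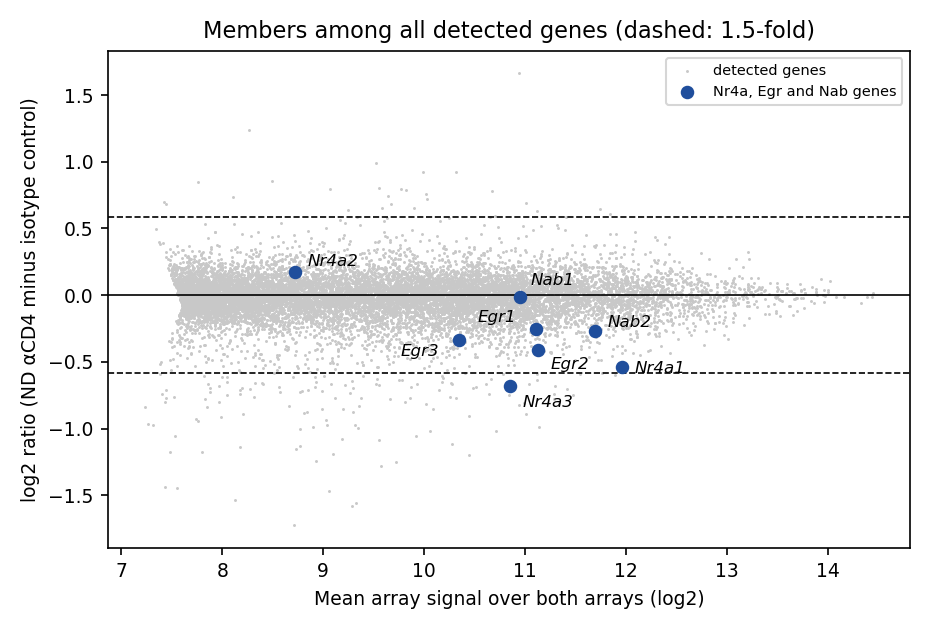
Log2 ratio (ND αCD4 minus isotype control, vertical axis) against the mean signal over both arrays (log2, horizontal axis) for each detected gene (gray points), with the 8 genes in blue, 0 as a solid line and 1.5-fold as dashed lines. *Nr4a3* at -0.68 lies beyond the lower dashed line, *Nr4a1* at -0.54 just above it, and *Nr4a2* at 0.18 and *Nab1* at -0.02 lie within the bulk of genes.

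The promoters of the 3 *Nr4a* genes are shown because these genes are classical targets of CREB, which binds the cyclic AMP response element (CRE), and because their signals did not move alike. The sequences are the 250 bases before the transcript start in RefSeq (mouse genome build GRCm38.p6), on the strand of the gene, with every match to the CRE core TGACG, or CGTCA on the other strand, in capitals. *Nr4a1* lies at chr15:101266596-101266845 (plus strand), *Nr4a2* at chr2:57124004-57124253 (minus strand) and *Nr4a3* at chr4:48045055-48045304 (plus strand).
Nr4a1: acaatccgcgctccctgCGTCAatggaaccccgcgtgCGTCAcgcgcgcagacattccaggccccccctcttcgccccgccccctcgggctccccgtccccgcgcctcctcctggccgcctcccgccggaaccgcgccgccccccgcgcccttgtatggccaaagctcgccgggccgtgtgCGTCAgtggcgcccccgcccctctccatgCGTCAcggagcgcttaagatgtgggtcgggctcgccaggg
Nr4a2: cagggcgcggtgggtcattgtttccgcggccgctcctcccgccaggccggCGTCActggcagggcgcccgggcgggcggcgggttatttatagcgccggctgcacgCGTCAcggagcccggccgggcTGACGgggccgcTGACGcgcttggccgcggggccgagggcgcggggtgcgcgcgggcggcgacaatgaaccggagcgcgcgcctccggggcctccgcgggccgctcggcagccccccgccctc
Nr4a3: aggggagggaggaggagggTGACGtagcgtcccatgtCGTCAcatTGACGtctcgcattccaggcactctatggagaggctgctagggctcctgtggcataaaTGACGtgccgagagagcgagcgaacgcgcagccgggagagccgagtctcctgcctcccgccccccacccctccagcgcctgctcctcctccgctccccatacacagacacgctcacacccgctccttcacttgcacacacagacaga

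Each of the 3 stretches held 4 matches to the CRE core. In *Nr4a1* they lay 233, 213, 69 and 40 bases before the start, in *Nr4a2* 200, 144, 123 and 111 bases before it, and in *Nr4a3* 231, 213, 205 and 147 bases before it. Among 32851 RefSeq windows of 300 bases (250 before and 50 after a transcript start, 27025 genes), 20.8% held at least 1 such match and 0.231% held 4 or more. The full palindrome TGACGTCA was in none of the 3 windows and in 1.79% of all windows. *Nr4a1* and *Nr4a3*, with lower signal after ND αCD4, and *Nr4a2*, with higher signal, thus had equal numbers of the core in this window. A match describes the letters only.

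All 3 *Egr* genes had a log2 ratio below 0 and none reached 1.5-fold. *Egr2* had a signal of 11.34 with isotype control and 10.93 with ND αCD4, which is 1.33-fold lower. *Egr3* had a signal of 10.51 and 10.18 in the same order, which is 1.26-fold lower. *Egr1*, which growth signals induce in many cell types, had a signal of 11.23 and 10.98, which is 1.19-fold lower. In percent of the 13222 detected genes with a log2 ratio as low or lower, *Egr2* stood at 2.22%, *Egr3* at 3.64% and *Egr1* at 6.49%. *Egr1* and *Egr2* differed by 0.16 in log2 ratio. *Egr4*, the family member that lacks the NAB binding domain, was dim, with a signal of 8.32 with isotype control and 8.14 with ND αCD4 and a log2 ratio of -0.18.

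For *Egr2*, RefSeq gave 5 promoter windows, and 4 of them held a serum response element, the site of the serum response factor through which ERK signaling reaches immediate early genes. These were matches at 2 places, since 3 of the windows overlap and share one. Such an element was in 1.63% of all windows. A stretch of 30 bases at chr10:67537794-67537823 (GRCm38.p6, plus strand) is shown because it joins this element, the first run of capitals, to a CRE core, the second run of capitals.
Egr2: agtCCATATATGGgcagcgaCGTCAcgggt
In the window with the start farthest along the gene, the element began 133 bases before the start and the core 116 bases before it. The NAB genes *Nab1* and *Nab2* and the 3 *Nr4a* genes had no serum response element in their windows.

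The corepressor genes did not move alike. *Nab2*, the corepressor that EGR factors induce, had a signal of 11.83 with isotype control and 11.56 with ND αCD4, which is 1.21-fold lower. Its log2 ratio of -0.27 lay between those of *Egr1* and *Egr3*, and 5.48% of detected genes had one as low or lower. *Nab1*, the corepressor known as the more constitutive of the pair, had a signal of 10.96 and 10.95, a log2 ratio of -0.02. With this ratio it stood near the middle of all detected genes, with 48.1% as low or lower. The log2 ratio of *Nab1* exceeded that of *Nab2* by 0.26.

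The *Nab1* window is shown because it held matches to the EGR site although the gene hardly differed between the arrays. The site GCGTGGGCG, searched on both strands, occurred 2 times, in capitals in the stretches of 30 bases at chr1:52500570-52500599 and chr1:52500538-52500567 (GRCm38.p6, minus strand). In the first stretch the site reads on the other strand.
Nab1 distal: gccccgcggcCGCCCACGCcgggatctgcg
Nab1 proximal: actcggccgcGCGTGGGCGggagccggagc
The sites began 141 and 109 bases before the start, and a further match, to the form GCGGGGGCG, began 38 bases before it. Of all windows, 0.612% held GCGTGGGCG at least once and 0.0213% at least 2 times, and 2.91% held GCGGGGGCG. The form GCGGGGGCG also occurred once in the *Nr4a1* window, 60 bases before the start and between 2 of its CRE cores, and neither form was in the windows of *Nr4a2*, *Nr4a3*, *Egr2* and *Nab2*. The NR4A site (NBRE) AAAGGTCA was in none of the windows examined for 6 of the genes and in 1.51% of all windows.

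**Figure D3:**
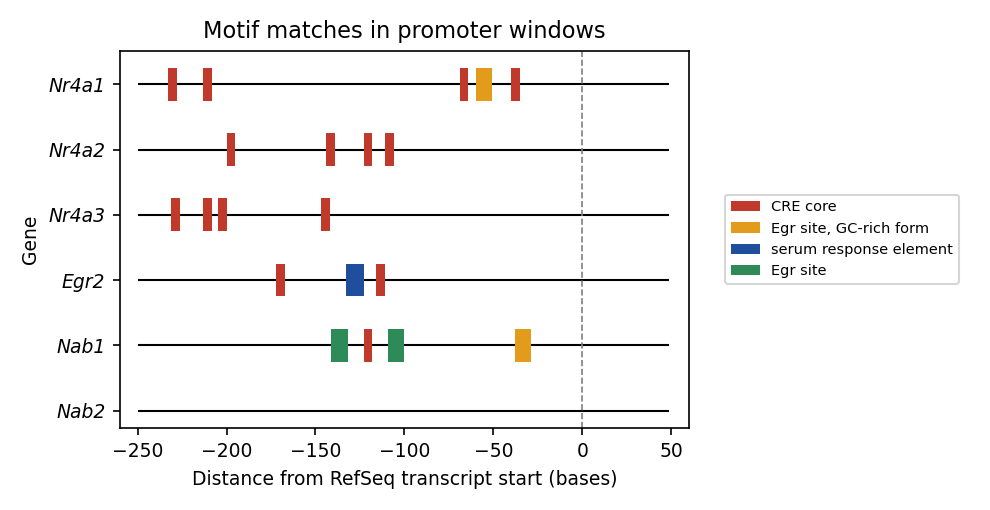
Motif matches (colored boxes, to scale) by distance from the RefSeq transcript start in bases, with the start as a dashed line. The 300-base windows are those of the 6 genes examined, and for *Egr2* the window with the start farthest along the gene. Each *Nr4a* gene has 4 CRE cores, *Nr4a1* also has 1 EGR site of the GC-rich form, *Egr2* has a serum response element between 2 cores, *Nab1* has 3 EGR sites around 1 core, and *Nab2* has none of these.

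The signaling genes upstream of these factors did not share the lower signal. Of 16 detected genes of calcineurin, NFAT and MEF2 signaling, a branch that induces the *Nr4a* genes, 13 had a log2 ratio above 0 and 3 below 0, with a median of 0.10, and none passed 1.5-fold. The largest were *Ppp3ca*, a catalytic subunit of calcineurin, at 0.34, the calcium sensor *Stim1* at 0.24 and *Nfatc2* at 0.24. Of 16 detected genes of the Ras, ERK, SRF and CREB branch, 11 were above 0 and 5 below 0, with a median of 0.03 and none past 1.5-fold. The CREB coactivators *Crtc3* (0.25) and *Crtc2* (0.22) and the CREB family gene *Crem* (-0.21) differed most. These are mRNA levels and do not measure the activity of the enzymes. Another 8 genes listed for this branch were not analysed here.

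Relatives and partners went both ways. Of 7 detected, 3 had a log2 ratio above 0 and 4 below 0, with a median of -0.01. Besides *Egr4*, these were the retinoid X receptors *Rxra* (-0.01) and *Rxrb* (0.15), which pair with NR4A1 and NR4A2, the zinc finger factors *Wt1* (-0.10), *Klf10* (-0.01) and *Klf11* (0.41), and the glucocorticoid receptor gene *Nr3c1* (0.07).

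Genes described as EGR2 or EGR3 targets in T cells were split. Of 21 detected, 12 had a log2 ratio above 0 and 9 below 0, the median was 0.01, and 1 passed 1.5-fold, in the higher direction. That gene was *Socs3*, a suppressor of cytokine signaling, with a signal of 10.29 with isotype control and 11.07 with ND αCD4. Its log2 ratio was 0.78, and 0.55, short of that size, when its probe sets were averaged. *Nrn1*, a gene of anergic T cells, had a log2 ratio of -0.52 and the costimulatory receptor *Tnfrsf9* of -0.46. *Cblb* and *Dgka*, restraints on TCR signaling named here after their values were seen, had log2 ratios of 0.01 and 0.12. Genes described as NR4A targets or partners had a median of -0.13, with 14 of 17 detected members below 0 and 3 above 0. The only one past 1.5-fold was *Irf4*, a factor that is induced by the TCR alongside the NR4A genes, with a signal of 10.83 with isotype control and 9.71 with ND αCD4. *Cd200* had a log2 ratio of -0.32 and *Ikzf2*, which encodes Helios, of -0.28. The 2 target lists share *Batf* (-0.24). The NR4A list also shares 4 genes, *Foxp3* and *Ikzf2* among them, with the regulatory and anergic state genes described below. The EGR list shares 1 gene with those. Both target lists were drawn up from general knowledge and not from binding data. They were not sorted by whether a factor raises or lowers a gene, so their medians do not measure the activity of the factors.

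**Figure D4:**
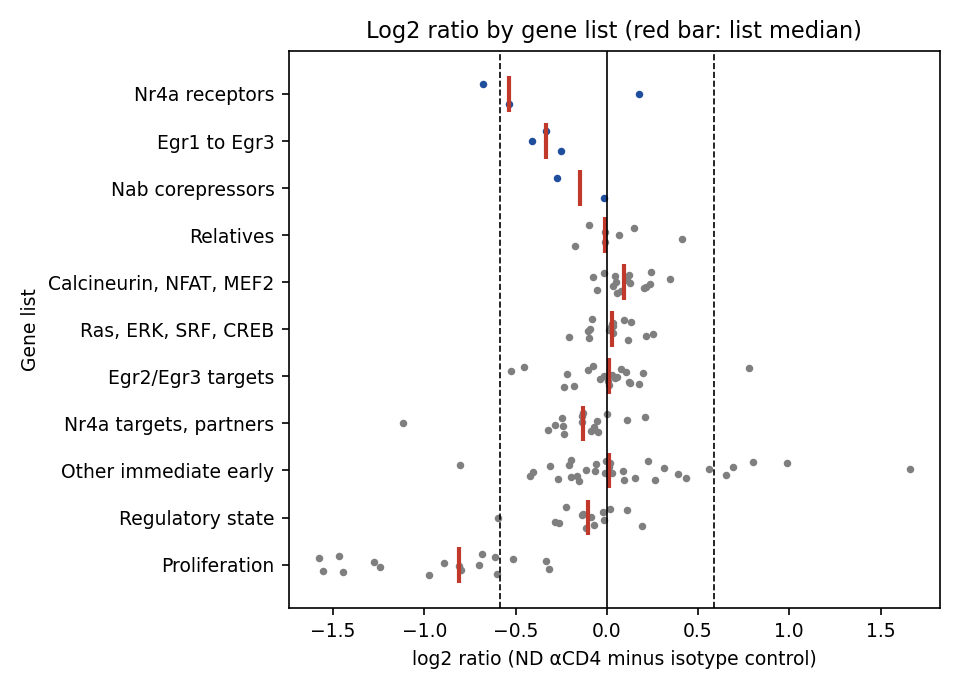
Log2 ratio (ND αCD4 minus isotype control, horizontal axis) of the detected genes of each list (points), red bars for list medians, a solid line at 0 and dashed lines at 1.5-fold. Points are spread vertically only to separate them. The median is -0.54 for the *Nr4a* genes, -0.33 for *Egr1* to *Egr3*, 0.01 for other immediate early genes and -0.81 for proliferation genes.

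Other immediate early genes spread to both sides. Of 32 detected, 17 had a log2 ratio above 0 and 15 below 0, with a median of 0.01, and by the 1.5-fold rule 5 were higher and 1 was lower. *Jun* (1.66), the phosphatase subunit *Ppp1r15a* (0.99) and the GTPase activating protein gene *Rgs2* (0.80) were the highest. The gene at least 1.5-fold lower was *Nfkbid* (-0.80), which encodes a nuclear IκB protein and is also induced by the TCR. The 4 phosphatase genes of the *Dusp* family in this list, named after their values were seen, went both ways, with log2 ratios of -0.42 for *Dusp6*, -0.20 for *Dusp2*, -0.16 for *Dusp5* and 0.44 for *Dusp1*. The AP-1 family, as a whole, had 15 detected members, 9 above 0 and 6 below 0, with a median of 0.03, and by the same rule 2 were higher and none was lower. This list shares 9 listed genes with the immediate early list. The 2 higher ones, *Jun* and *Fos*, are also among the 5 higher immediate early genes, so the 2 lists are not separate observations. Whether the members differ from these genes was not tested, since 1 array per condition allows no test.

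Several cell populations in the gate could differ between the pools. All 17 detected proliferation genes had a log2 ratio below 0 and 14 were at least 1.5-fold lower, or 13 when background stood in for a value below it, as for *Birc5* with ND αCD4, with a mean signal of 9.95 with isotype control and 9.02 with ND αCD4. Regulatory T cells, which are known for high NR4A levels, fall in the CD3+CD4+ gate. Of 14 detected genes of the regulatory and anergic state, 11 had a log2 ratio below 0, with a median of -0.10 and a mean signal of 10.16 and 10.05 in the same order. Their defining gene *Foxp3* had a log2 ratio of -0.07, and *Il2ra*, which effector T cells also express, was the only one past 1.5-fold at -0.59. It fell short of that size after quantile normalization (-0.57) and after lowess correction (-0.58). The CD8 genes *Cd8a* (0.72) and *Cd8b1* (0.45), which the gate should leave out, were above 0, with a mean signal of 10.52 and 11.11. Genes of T cells as a whole had a median of -0.0038 over 6 detected members, the lowest at -0.09. Of 8 genes of B cells, 5 were detected, with log2 ratios of 0.04 to 0.32. Macrophage and monocyte genes (4 detected) had a median of 0.07, dendritic cell genes (3) -0.04, neutrophil genes (3) 0.11 and stromal and endothelial genes (6) -0.01. All 6 natural killer genes had a log2 ratio above 0, but 5 of them did not exceed background in either array. The detected one, the receptor gene *Klrd1*, exceeded it only with ND αCD4, with a signal of 7.34 with isotype control and 8.19 with ND αCD4, and was at least 1.46-fold higher when background stood in for the lower value. Of 4 red blood cell genes listed, 1 was detected. The part of any of these in the values of the *Nr4a*, *Egr* and *Nab* genes was not tested.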

How the data were processed

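Expression was measured by array in 2 pools of sorted PLN CD4+ T cells, 1 per condition. A log2 value for each probe set was deposited, made with Affymetrix Expression Console per the labels, whose version and methods of background correction, scaling and summary were not stated in the sources. The log2 scale was taken from the range (2.52 to 14.7) and the equal medians (8.15 in both arrays). The probe set identifiers are those of an earlier mouse gene ST array than the one the methods name.

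Of 35557 probe sets, 21789 had 1 gene symbol and were used, 1621 had several and 12147 had none. Where a gene had several probe sets, the brightest on average represented it. Background came from 1210 receptor probe sets. Differences, ranks, medians and counts were computed from the deposited log2 values, with 1.5-fold as the size rule and no test, as each condition has 1 array. The gene step was tested on simulated data. The planted changes all exceeded 1.5-fold and lay in genes well above background, so smaller ratios, as most members have, were not covered. Genes were named by rule: all members, all detected relatives, up to 3 genes of largest absolute log2 ratio per list, up to 2 markers per cell type, and the few said to be named after their values were seen. *Foxp3* was named as a defining gene. Outside the rule and after values were seen, *Nfkbid* was named as the only immediate early gene at least 1.5-fold lower. *Batf* was named as shared by lists, and *Birc5* for a value below background. A planned ranking of genes by nearness of signal to 3 members was left out, since signals of different probes cannot be compared. The members and lists were chosen with earlier results of these data known. Alternatives were centring on the median, quantile normalization, lowess correction (fraction 0.3, 3 iterations), a floor at background, averaging over probe sets, inclusion of probe sets with several symbols, a 2-fold rule, and, for the counts over all genes, a filter on both arrays or none. Promoter sequences are from RefSeq and were matched to the members by symbol. Windows on the chromosome that holds *Egr1* were left out when the members were matched, so no window of *Egr1* could enter. The shares over all windows kept that chromosome. Windows of 6 of 8 members were used, and *Egr1* and *Egr3* were not among them, so their motifs were not examined. Software was pandas 2.3.3 and numpy 2.4.6 under Python 3.11.15, with statsmodels 0.14.6 for lowess and matplotlib 3.10.9 for plots.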

Additional observations from a re-analysis of the deposited data

How the results depend on the processing

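The log2 ratio of each of the 8 genes was recomputed under 6 alternatives and moved by at most 0.03. Only 3 of these (centring, quantile normalization and lowess correction) could move a member, since each member has 1 probe set above background in both arrays. *Nr4a3* ran from -0.68 to -0.67 and passed 1.5-fold under these 3, *Nr4a1* ran from -0.54 to -0.51 and passed it under none, and *Nr4a2* ran from 0.17 to 0.18. *Nab1* ran from -0.02 to 0.00 and changed sign under 1 alternative, quantile normalization. The median of the 8 genes ran from -0.30 to -0.29, and list medians moved by at most 0.05. At a 2-fold rule, 0 of the 8 genes were lower, while 25 of all detected genes were lower and 2 higher, fewer as a stricter rule must give. Under the other alternatives that keep a detection filter, 109 to 134 genes were lower and 25 to 38 higher, and with no filter 151 and 41. No paired analysis was possible because each condition has 1 array. None of these alternatives covers differences between mice, and with 1 array each, what a second pool would give is unknown.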
